A study of Bombyx mori with 3 samples.

Results

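The comparison of adult moths with larvae of the silkworm Bombyx mori covered 126 of the 132 non-coding RNAs (ncRNAs) on a 2-colour array, and the adult sample was 1 of 3 stage samples in the series. Its members are the probes named Bm with a number that had at least 1 spot without a negative flag in the adult table. The adult sample was a pool of RNA from moths of both sexes, and the larval sample was a pool spanning instars 1 to 5. Both came from strain Dazao P50, raised after hatching at 25 °C with 14 h of light, 10 h of dark and 70% relative humidity. The egg and pupal samples, used below for comparison, were pools of diapaused and non-diapaused eggs and of days 1 to 9 of pupation, and the larval pool was the reference for every stage. The sources used here give neither the number of animals nor the sex ratio of the pools.

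The probes target ncRNAs of 50 to 500 nucleotides. This size range is known to hold spliceosomal RNAs, which act in the removal of introns, small nucleolar RNAs, which guide the modification and processing of ribosomal RNA, and the RNA components of RNase P and of the signal recognition particle. The larva is the feeding and growing stage, in which the silk glands become a large part of the body. At metamorphosis larval tissues such as the silk glands break down, and the moth, which does not feed, is largely given over to reproduction. In RNA of whole pooled animals, fewer cells of a type and less RNA per cell cannot be told apart. The names of the probes carry no RNA class, sequence or position, so the ncRNAs are described by name and level only. No named probe is known here to mark adult or larval tissue, and the stage labels were not checked against markers.

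Each ncRNA was printed in 3 spots and scanned in 2 dye orientations, with adult RNA in Cy5 (red) and larval RNA in Cy3 (green), or the dyes exchanged. Scans are called below by the dye of the adult RNA, the Cy5 scan and the Cy3 scan. An ncRNA could therefore have 6 values, each a log2 ratio of adult over larval intensity. All 6 were kept for 92 ncRNAs, 5 for 14, 4 for 4, 3 for 10, 2 for 2 and 1 for 4. Of the 396 ncRNA spots, 340 were kept in the Cy5 scan and 336 in the Cy3 scan. The ncRNAs Bm-53, Bm-57, Bm-110, Bm-111, Bm-142 and Bm-175 had no kept spot. The Cy3 scan also stands in the pupal table, where its channels carry the labels pupa (Cy5) and larva (Cy3). Its flags were the same in the pupal and adult tables at 561 of 561 spots, and its log2 ratios differed with an SD of 0.0133 over 363 spots once the channels were matched. Read under its adult label, it correlated with the other adult scan at r = 0.880 over 112 ncRNAs, and read as pupa over larva it correlated with the other pupal scan at r = -0.375 over 108. For Bm-86, the ncRNA with the widest ratio, it gave -4.28 as adult over larva, against -3.71 in the other adult scan, and 4.26 as pupa over larva, against -0.13 in the other pupal scan. The adult label was therefore kept here, the sources do not settle it, and values from the Cy5 scan alone, which is not shared, are given beside the means. There was 1 pool per stage and no biological replicate, so no test between stages was possible. Each ± value is the SD over repeated spots of a probe, each spot first averaged over its kept scans, and is technical. Where spots of a probe were kept in different scans, it also holds the difference between orientations. Pupal SDs come from 1 scan, so they are not the same measure as those averaged over 2 scans.

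Most ncRNAs lay close to their larval level in the moth, on intensities used as already normalized between dyes. Such normalization can itself set the median ratio near 0, so a shift shared by most ncRNAs would not be seen. The log2 ratio of adult over larva had a median of -0.02 over 126 ncRNAs, its 25th and 75th percentiles were -0.27 and 0.26, and its 5th and 95th were -0.66 and 0.73. Within 1.2-fold of larva were 60 ncRNAs (47.6%), within 1.5-fold 104 (82.5%) and within 2-fold 122 (96.8%). From the Cy5 scan alone, over 118 ncRNAs, the median was 0.00072, the 25th and 75th percentiles were -0.30 and 0.25, and those shares were 48.3%, 81.4% and 95.8%. A difference was counted where the mean was at least 2-fold, or at least 1.5-fold at the lower threshold, with all kept values of an ncRNA on the same side of 0. At 2-fold, 3 of 126 ncRNAs were higher in adult (2.38%) and 1 was lower (0.794%), or 4 in all (3.17%). At 1.5-fold, 13 were higher (10.3%) and 9 were lower (7.14%), or 22 in all (17.5%). No ncRNA (0) reached 1.5-fold in its mean and failed the condition on sign. These shares are of all ncRNAs measured, so they are themselves the background of the comparison, and no test stands behind them.

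The largest difference was that of Bm-86, which was far lower in the moth. In the Cy5 scan its 3 spots had adult intensities of 1542, 928 and 1262, against larval intensities of 19463, 13456 and 15399. In the Cy3 scan the adult intensities were 1799, 1447 and 1032, against larval intensities of 34303, 27564 and 20889. Every adult value lay far below every larval value, with no overlap in either scan. The log2 ratios of the spots were -3.66, -3.86 and -3.61 in the Cy5 scan and -4.25, -4.25 and -4.34 in the Cy3 scan. Their mean was -3.99 ± 0.053 (3 spots), or 15.9-fold lower in adult. The next ncRNA in this direction was at -0.96, so Bm-86 stood apart from the other 125.

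Above the larval level, Bm-152, Bm-140 and Bm-163 were past 2-fold. Bm-152 had adult intensities of 2226, 1739 and 1950 in the Cy5 scan (larval 966, 728 and 627) and of 3483, 2480 and 2194 in the Cy3 scan (larval 1478, 831 and 760). Its adult values exceeded its larval values in each scan without overlap. The mean log2 ratio was 1.41 ± 0.18, or 2.65-fold higher in adult, with 1.37 from the Cy5 scan and 1.45 from the other. Bm-163 was brighter, at 24744, 21485 and 22666 in the Cy5 scan (larval 11947, 9665 and 10137) and 19741, 15197 and 18826 in the Cy3 scan (larval 7370, 5964 and 7956). Again adult and larval values did not overlap in either scan. Its log2 ratios of 1.12 and 1.34 in those scans averaged 1.23 ± 0.025, or 2.34-fold higher. Bm-140 had adult intensities of 2359, 1653 and 1667 in the Cy5 scan (larval 1224, 811 and 846) and 13036, 6588 and 6187 in the Cy3 scan (larval 4915, 2417 and 1794). The first spot of Bm-140 was the brightest in both channels of both scans, and it had the lowest ratio in each, 0.95 and 1.41. Its mean of 1.27 ± 0.11 (2.40-fold higher) combined 0.98 in the Cy5 scan, just under 2-fold, and 1.55 in the Cy3 scan.

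The nearest ncRNAs below the 2-fold threshold were Bm-23, Bm-168 and Bm-177 on the higher side. Bm-23 had a log2 ratio of 0.90 ± 0.019 from adult intensities of 9576, 7051 and 6770 in the Cy5 scan (larval 5738, 4125 and 3851) and of 24971, 22800 and 19973 in the Cy3 scan (larval 12398, 11183 and 9929). The spots of Bm-23 agreed closely within each scan, at 0.74 to 0.81 in the Cy5 scan and 1.01 to 1.03 in the Cy3 scan, so the orientations differed by more than the spots did. Bm-168 was at 0.79 ± 0.0061, with 0.69 and 0.90 in the orientations, and Bm-177 was at 0.75 ± 0.096, with 0.59 and 0.91. The small spot SD of Bm-168 leaves out that difference between orientations. Bm-18 followed at 0.73, Bm-35 at 0.71, Bm-135 at 0.67, Bm-154 at 0.66, Bm-31 at 0.64, Bm-153 at 0.61 and Bm-100 at 0.60. In the Cy5 scan alone, Bm-18 was at 0.58, Bm-35 at 0.40, Bm-135 at 0.49, Bm-154 at 0.62, Bm-31 at 0.41 and Bm-100 at 0.65. Of these, Bm-153 was measured in the Cy5 scan only, and Bm-135 had the widest spread, with spot values from 0.32 to 1.15.

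On the lower side, Bm-129 and Bm-51 lay just short of 2-fold. Bm-129 was at -0.96 ± 0.40, from adult intensities of 454, 441 and 501 (larval 1378, 1272 and 1241) in the Cy5 scan and of 1092 (larval 1492) in the single spot kept in the Cy3 scan. Its value therefore turned on the orientation, being -1.48 in the first and -0.45 in the other. Bm-51 was at -0.94 ± 0.094, with adult intensities of 683, 476 and 565 (larval 1200, 1177 and 1159) in the Cy5 scan and 395, 539 and 482 (larval 717, 825 and 966) in the Cy3 scan. All 6 adult values of Bm-51 lay below all 6 larval values. Bm-79 was the brightest of the rest, at -0.72 ± 0.076, with adult intensities of 4556, 3297 and 3431 (larval 7426, 5612 and 5158) and, with the dyes exchanged, 13320, 12486 and 12054 (larval 21778, 22267 and 19791). Within each scan no adult value of Bm-79 reached a larval one, and the orientations gave -0.69 and -0.75. Bm-104 (-0.70), Bm-109 (-0.69), Bm-84 (-0.66), Bm-108 (-0.66) and Bm-115 (-0.63) completed the 9. In the Cy5 scan alone these were at -0.58, -0.59, -0.65, -0.71 and -0.46 in that order.

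**Figure D1:**
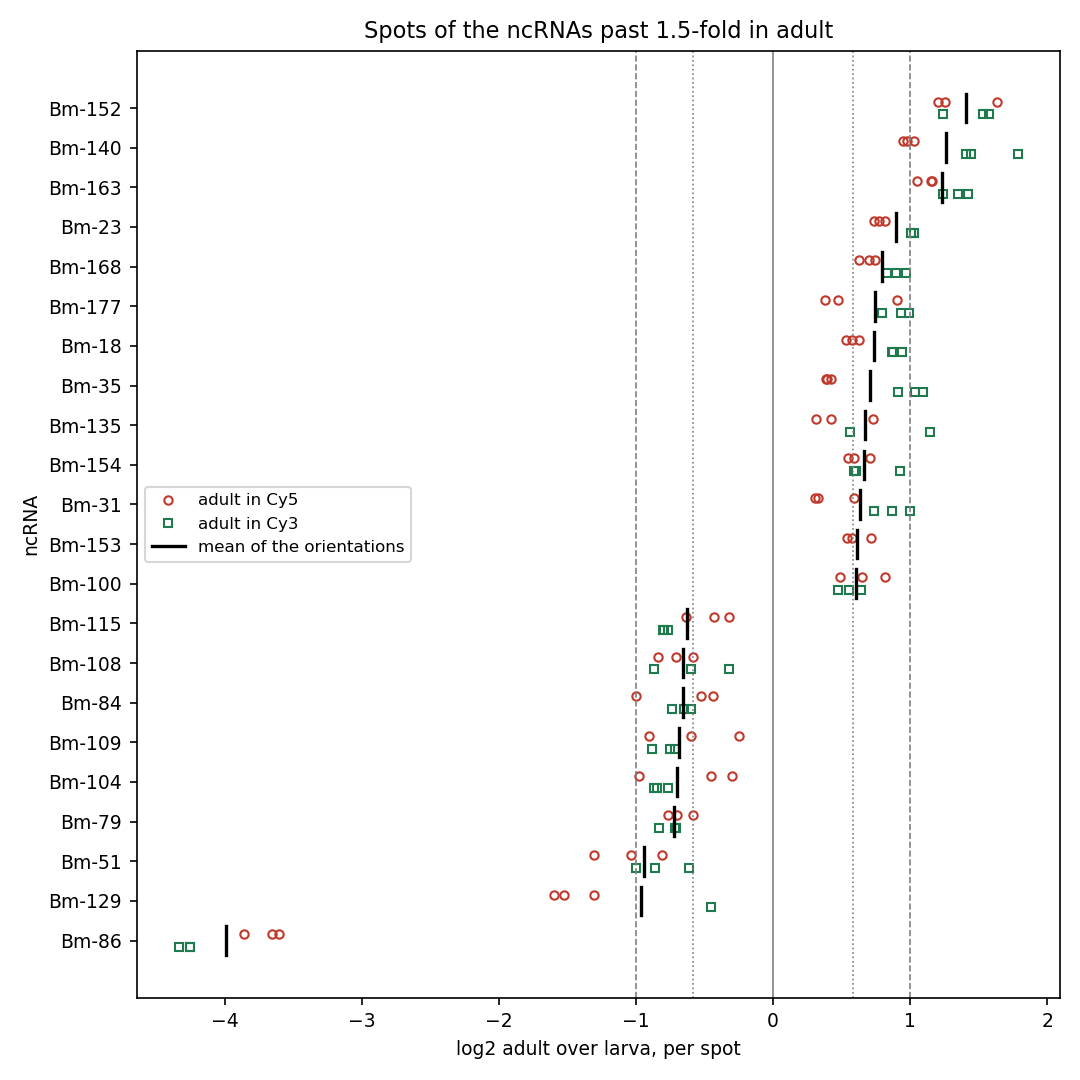
Log2 ratio of adult over larval intensity (x axis) in each kept spot of the 22 ncRNAs past 1.5-fold (y axis), the Cy5 scan as circles, the Cy3 scan as squares and the mean of the orientations as a black bar. Dotted lines mark 1.5-fold and dashed lines 2-fold. Bm-86 lies alone at -3.99, and no other ncRNA has a mean past 2-fold on the lower side.

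The differences between dye orientations reflect technical error only if the Cy3 scan is an adult scan. That label was kept because of this same correlation, among other values, so the agreement is no independent measure of technical error. The orientations share probes and, under that label, pools. Across the 112 ncRNAs measured in both, Pearson's r of the log2 ratios was 0.880 and Spearman's rho 0.786, and r was 0.80 over the 111 without Bm-86. The ratio in the Cy5 scan minus that in the Cy3 scan averaged -0.05 with an SD of 0.30, and its median size was 0.17. In 10 of the 112 it was over 0.5 in size, and in 23 the orientations had opposite signs. The condition on sign was met by 30 higher and 28 lower ncRNAs of the 112, and 54 had values of both signs. Bm-129 differed by the widest margin (-1.03), followed by Bm-85, at 0.10 in the Cy5 scan and 0.99 in the Cy3 scan, and Bm-21, at -0.59 and 0.27. Bm-37 was at -0.59 and 0.17, and Bm-15, with 0.25 and -0.48, ran the other way. None of these 4 met the condition on sign.

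Among the 21 ncRNAs past 1.5-fold that were measured in both orientations, 13 exceeded 1.5-fold in each, of which 7 were higher and 6 lower in adult. Another 6 (Bm-18, Bm-31, Bm-35, Bm-104, Bm-115 and Bm-135) did so in the Cy3 scan alone, and Bm-100 and Bm-129 in the Cy5 scan alone. Bm-35 was the clearest case, with spots between 0.39 and 0.42 in the Cy5 scan, and none below 0.91 in the Cy3 scan. Across all 112 ncRNAs measured in both orientations, the SD of the ratios was 0.56 in the Cy5 scan and 0.63 in the Cy3 scan. Most of the 21 were also further from 0 in the Cy3 scan. That share was not counted over the 112, so it is not read as a trait of the 21. From the unshared Cy5 scan alone, 2 ncRNAs were higher past 2-fold (Bm-152 and Bm-163) and 3 were lower (Bm-86, Bm-129 and Bm-51), and 16 of the 22 past 1.5-fold remained so.

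**Figure D2:**
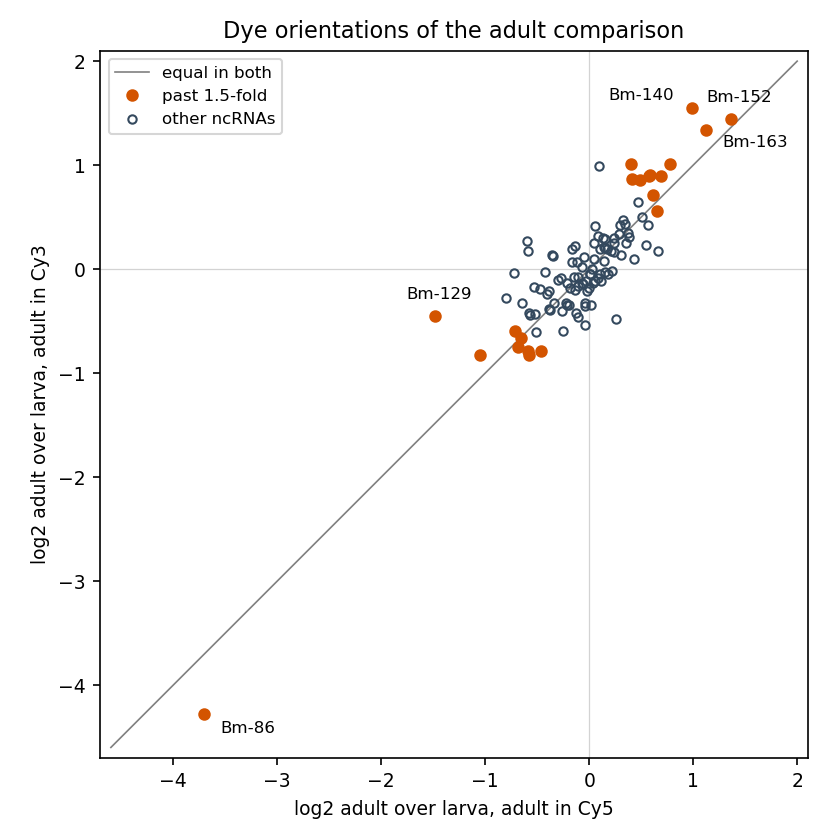
Log2 ratio of adult over larva in the Cy5 scan (x axis) against that in the Cy3 scan (y axis), 1 point for each of 112 ncRNAs, filled for the 21 past 1.5-fold in the mean. Points follow the line of equal values (r = 0.880), and Bm-129 lies farthest from it.

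How far a ratio can be read depends on the intensity of both channels. The array held 108 negative spots, made up of 48 blanks, 33 spots of SSC buffer and 27 spots named otherwise as negative controls. The 95th percentile of all negative spots was 792 for adult and 638 for larva in the Cy5 scan, and 1568 for adult and 1551 for larva in the Cy3 scan. By this measure the adult signal was above background in every measured scan for 58 of 126 ncRNAs and the larval signal for 61. A small set of spots decided these limits. The other negative controls included 6 spots without a negative flag in both scans, with adult intensities of 655 to 1686 in the Cy5 scan and 1481 to 3013 in the Cy3 scan. From the blank and buffer spots alone, a choice made after the data were seen, the 95th percentiles were 451 for adult and 342 for larva in the Cy5 scan, and 274 for adult and 371 for larva in the Cy3 scan. The adult signal was then above background for 114 ncRNAs and the larval signal for 115. The 10 unflagged negative spots in the Cy5 scan all had adult above larva, at log2 ratios from 0.08 to 0.72. In the Cy3 scan the unflagged ones ran from -0.25 to 0.13, apart from a blank at 1.04. Bm-153, measured in the Cy5 scan only, was at 0.61, within the range of the negative spots there. So were Bm-168 (0.69), Bm-100 (0.65), Bm-154 (0.62), Bm-177 (0.59), Bm-18 (0.58), Bm-135 (0.49), Bm-31 (0.41) and Bm-35 (0.40) in that scan. Of the ncRNAs higher past 1.5-fold, only Bm-152, Bm-163, Bm-140 and Bm-23 lay above that range in the Cy5 scan. The cause of the ratios of the negative spots was not tested.

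For the 22 ncRNAs past 1.5-fold the dimmer channel matters most, the larval one for those higher in adult and the adult one for those lower. Against all negative spots it was above background in every measured scan for 8 of the 13 higher and 2 of the 9 lower ncRNAs (Bm-79 and Bm-84). It was below in each scan for Bm-129, Bm-115, Bm-109 and Bm-51. Against blank and buffer spots it was above in every measured scan for 12 of the 13, the exception being Bm-135, and for 9 of the 9. The mean adult signal of Bm-86, 1244 in the Cy5 scan and 1426 in the Cy3 scan, passed all limits but that of 1568.

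**Figure D3:**
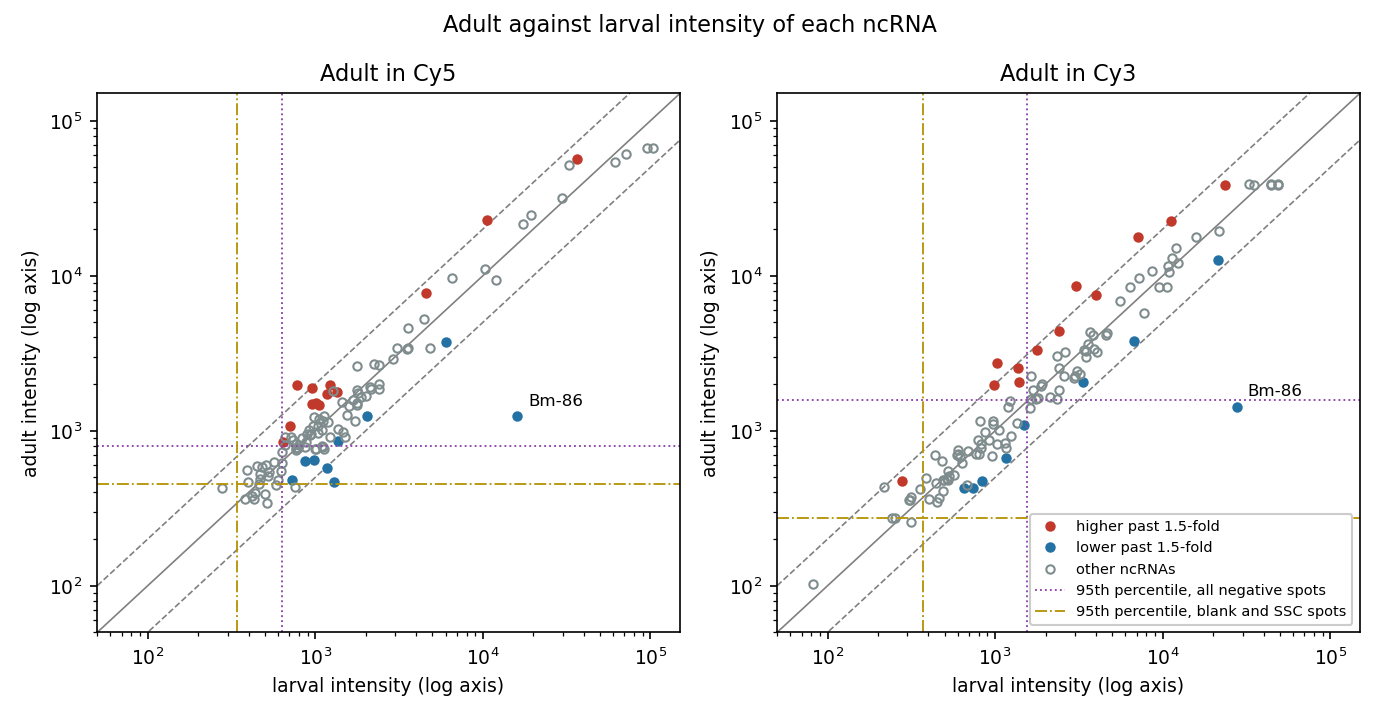
Adult intensity (y axis, log scale) against larval intensity (x axis, log scale) of each ncRNA, as the mean of its kept spots, for the Cy5 scan on the left and the Cy3 scan on the right. The solid line marks equal intensity and the dashed lines 2-fold. Dotted and dash-dotted lines give the 95th percentile of all negative spots and of blank and SSC spots. The highest adult mean on the right is 39026 (Bm-48).

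At the bright end, intensities piled up at a top value. In the adult channel of the Cy3 scan, 20 ncRNA spots lay between 38559 and 39075 and the next at 37881. In the larval channel of that scan 8 spots lay between 48293 and 48935. In the Cy5 scan, 7 spots lay between 66195 and 66881 in the adult channel, and no such plateau was seen in the larval channel, whose highest spot was at 110932. The tables carry no saturation flag, so whether these plateaus are the scanner's ceiling was not tested. The spots belonged to 7 ncRNAs, of which Bm-33, Bm-48, Bm-101, Bm-103, Bm-146 and Bm-172 had all 3 spots on the adult plateau of the Cy3 scan. Bm-154, 1 of the 13 higher ncRNAs, had 2 of its spots there, and its ratio was 0.62 in the Cy5 scan and 0.71 in the Cy3 scan. Bm-172 was at 0.66 in the Cy5 scan, where no spot of it lay on a plateau, and at 0.17 in the Cy3 scan. Bm-101 was at -0.65 and -0.33, with its adult spots on the plateau in both scans. Its larval spots in the Cy3 scan were on the plateau too, so that -0.33 is the ratio of a pair of plateau values (means of 38612 for adult and 48516 for larva), as is that of Bm-33 there. Without these spots 23 ncRNAs were past 1.5-fold, the 22 named above and Bm-172.

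A set of ncRNAs stayed near the larval level on these normalized intensities. In 20 of the 126, every kept value was within 1.2-fold of larva, and 12 of these had all 6 values. Among the 52 ncRNAs with 6 values and both channels above the limit of all negative spots, Bm-61, Bm-72, Bm-58, Bm-55 and Bm-11 were those whose farthest spot value lay nearest to 0. Bm-61 had adult intensities of 3843, 2453 and 2416 (larval 3890, 2219 and 2599) in the Cy5 scan and of 10960, 10555 and 10090 (larval 12070, 10132 and 10444) in the Cy3 scan. Adult and larval values overlapped in both scans, and its log2 ratio was -0.02 ± 0.10. Bm-72 was at -0.10 ± 0.11, Bm-58 at -0.09 ± 0.056, Bm-55 at 0.07 ± 0.080 and Bm-11 at 0.07 ± 0.11, and the largest size of any of their spot values was 0.25. In the Cy5 scan alone Bm-61 was at 0.0074, Bm-72 at -0.06, Bm-58 at -0.0026, Bm-55 at 0.05 and Bm-11 at 0.18.

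In all, 14 ncRNAs were measured in a single orientation, 6 in the Cy5 scan (Bm-8, Bm-13, Bm-44, Bm-66, Bm-77 and Bm-153) and 8 in the Cy3 scan (Bm-4, Bm-19, Bm-28, Bm-83, Bm-95, Bm-98, Bm-131 and Bm-160). A dye effect is not removed from these, and 3 of them (Bm-77, Bm-83 and Bm-160) are among the 20 within 1.2-fold. For Bm-83 and Bm-160 that rests on 1 kept value each. Bm-153 is 1 of the 13 higher ncRNAs, and the other single-orientation means ran between -0.31 (Bm-44) and 0.56 (Bm-8).

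The named controls and the probes named AP lay outside the ncRNA comparison. The control named ph, whose RNA the sources do not resolve, averaged 2123 in adult and 1323 in larva over 12 spots in the Cy5 scan, and 1626 in adult and 823 in larva over 12 spots in the Cy3 scan. Its log2 ratio was 0.84 ± 0.12, and each of its 24 values was above 0, from 0.42 to 1.53. RpL3, which encodes a ribosomal protein, was at -0.0054 in the Cy5 scan (12 spots) and -0.53 in the Cy3 scan (7 spots). Actin A3, a cytoskeletal protein's mRNA, had 6 kept spots, all in the Cy5 scan, with a mean of -0.28 ± 0.30. The 7 probes named AP had no kept spot (0 of 21 in each scan), and their highest intensity was 436.

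Beside the other stages, the ncRNAs that were higher or lower in the moth fell into different patterns. These values share the larval pool, and the 22 were picked by their adult value, so a smaller value elsewhere adds no support. The pupal value is from its other scan (pupa in Cy3), which is not shared with the adult table and covers 111 ncRNAs. Bm-152 and Bm-140 were past 1.5-fold at each stage. Bm-152 was at 0.75 ± 0.090 in egg, 1.17 ± 0.078 in pupa and 1.41 ± 0.18 in adult. Bm-140 was at 0.71 ± 0.27 in egg, 0.78 ± 0.25 in pupa and 1.27 ± 0.11 in adult. In both the adult value was the highest of these stages. For Bm-152 it exceeded the pupal value by 0.23, little more than its own spot SD, and the pupal value keeps any dye effect.

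Other ncRNAs showed no such level at every stage. Bm-23 was at -0.24 ± 0.13 in egg, 0.65 ± 0.17 in pupa and 0.90 ± 0.019 in adult. Bm-163 was at 0.58 ± 0.16 in egg, -0.09 ± 0.10 in pupa and 1.23 ± 0.025 in adult, and its egg value differed between dyes (0.12 for Cy5 and 1.05 for Cy3). Bm-100 was higher in egg (1.36 ± 0.084) than in pupa (0.22 ± 0.25) or adult (0.60 ± 0.073). Among those lower in adult, Bm-79 was at -0.73 ± 0.080 in egg, -0.09 ± 0.022 in pupa and -0.72 ± 0.076 in adult. Bm-51 was at -0.02 ± 0.19 in egg, -1.63 ± 0.099 in pupa and -0.94 ± 0.094 in adult. Bm-86 was at -2.56 ± 0.21 in egg, -0.13 ± 0.052 in pupa and -3.99 ± 0.053 in adult.

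As a group, the 13 ncRNAs higher in adult had a median log2 ratio of 0.17 in eggs, 0.31 in pupae and 0.73 in moths, where the medians over all ncRNAs measured were 0.04, -0.04 and -0.02. The 9 lower in adult had medians of -0.17, -0.39 and -0.70 at these stages. From the Cy5 scan alone the adult medians were 0.62 for the 13 and -0.69 for the 9. Of the 13, 3 were also past 1.5-fold as higher in egg, where 13.5% of the 126 measured were, and 4 in pupa, where 8.11% of the 111 measured were. Of the 9, 2 were also past it as lower in egg (7.14% of all measured) and 1 in pupa (6.31%). The larval pool is the reference at every stage, so a low or high larval level alone moves the ratios of all stages the same way. These counts beside the shares of all measured are therefore no support, and no test stands behind them. The interquartile range of all ratios to larva was 0.50 in eggs, 0.47 in pupae and 0.53 in moths, and without Bm-86 their SD was 0.45, 0.45 and 0.43.

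**Figure D4:**
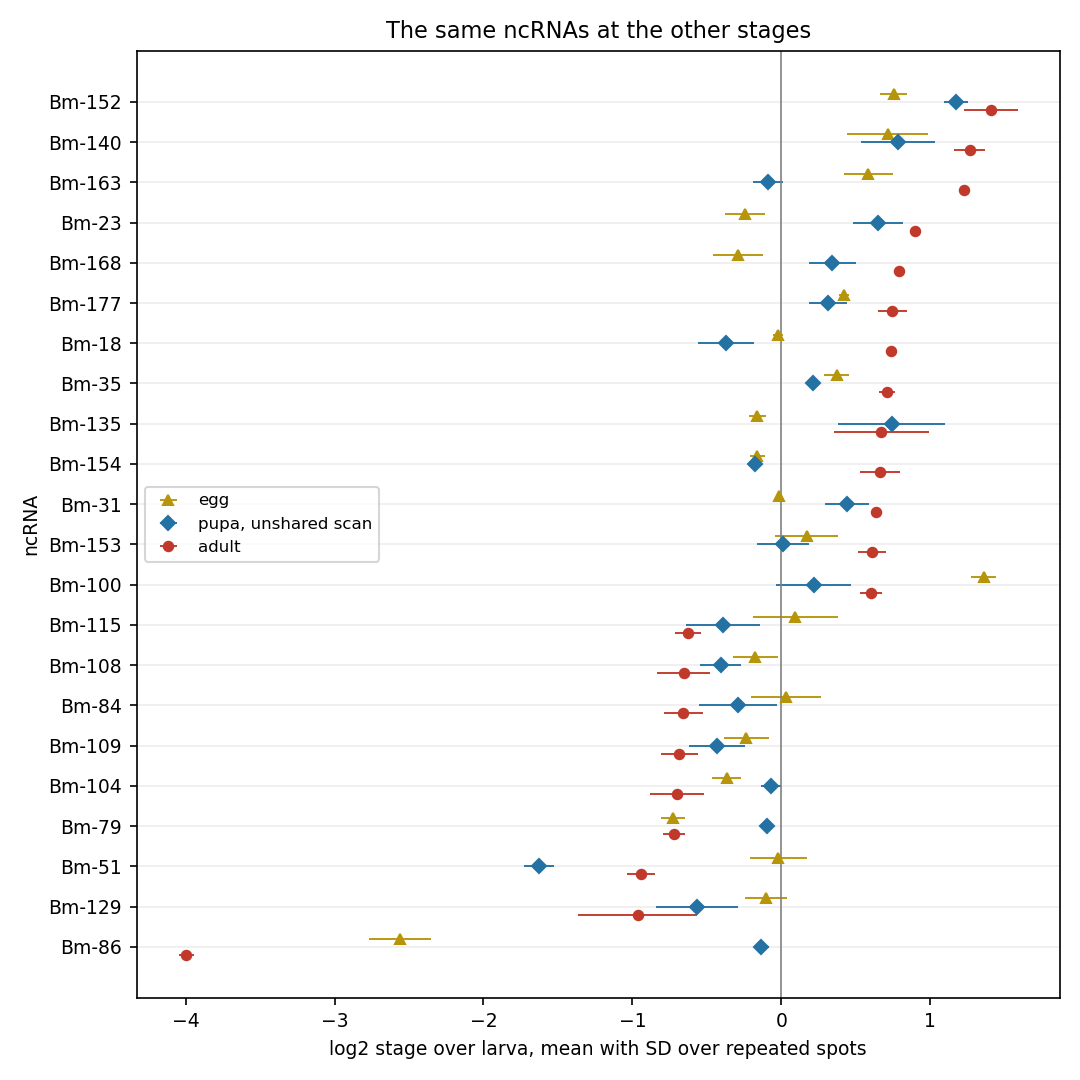
Log2 ratio of each stage over larva (x axis) for the 22 ncRNAs past 1.5-fold in adult (y axis), as the mean with the SD over repeated spots, for egg (triangles), pupa from its unshared scan (diamonds) and adult (circles). The means of 6 of these ncRNAs lie above larva at each stage and those of 7 below it. Bm-152 and Bm-140 are past 1.5-fold at each stage, while the mean of Bm-86 lies at only -0.13 in pupa.

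Adult minus egg, a difference of log2 ratios, sets the moth against the egg, since the level of the shared larval pool cancels. The larval channel was measured in separate scans for egg and adult, so its scan and dye errors do not cancel. Bm-23 was 1.14 higher in adult than in egg, with 1.17 from the scans with the stage in Cy5 and 1.11 from those with the stage in Cy3. Bm-168 (1.09), Bm-135 (0.83), Bm-154 (0.82) and Bm-18 (0.76) followed. Their values with the stage in Cy5 were 0.90, 0.47, 1.04 and 0.49, and with the stage in Cy3 1.27, 1.2, 0.60 and 1.02, in that order. The lowest differences were those of Bm-86 (-1.44), Bm-158 (-1.21), Bm-160 (-1.19), Bm-36 (-1.16) and Bm-37 (-1.12). Bm-86 differed between orientations, at -0.60 with the stage in Cy5 and -2.27 with the stage in Cy3, as did Bm-37 (-1.84 and -0.41) and Bm-36 (-1.57 and -0.75). Bm-158 was at -1.21 and -1.22. The adult value of Bm-160 came from 1 spot in the Cy3 scan, and its difference in that dye was -0.95.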

How the data were processed

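The deposited spot tables hold, for each scan, the intensity in Cy5 (red) and Cy3 (green) and a flag, and for each spot a log2 ratio and a p-value. Which stage was in which dye was read per the file headers. Per the labels' protocols, RNA was extracted with Trizol and dyes were incorporated during cDNA synthesis. How background was corrected and how values were normalized is not given in the sources used here. The median log2 ratio of kept ncRNA spots was -0.0057 (adult in Cy5) and -0.0078 (dyes exchanged), so the deposited intensities were used as already normalized between dyes.

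Log2 adult over larva was computed for each measurement whose flag was not negative, with no pseudocount, averaged over spots within each orientation, then over orientations (Python 3.11.15, pandas 2.3.3). The authors' deposited spot ratio equalled the mean over kept scans within 1e-08 in 410 spots. The authors' deposited p-values compare technical measurements and were not used. The authors' deposited value table was an alternative. Other alternatives changed the dye orientation used, spot averaging, centring, the flag and background filters, the pseudocount and the threshold. The number of arrays limits the precision.

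Named were all ncRNAs past 1.5-fold with every kept value of 1 sign, the 5 differing most between orientations, the 5 nearest to larva in every spot, the 5 highest and 5 lowest in adult minus egg, those with 1 orientation or none, and the controls. The ncRNAs on an intensity plateau were named after their values were seen. Members and lists were chosen with earlier results of these data known. The step that counts higher and lower ncRNAs was first run on simulated data at the 2-fold threshold. The 1.5-fold threshold was not simulated, and the simulation is not used as support for the lists.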

Additional observations from a re-analysis of the deposited data

Results flagged for a closer look

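Bm-163 was higher in adult but not in the unshared pupal scan, where its 3 spots averaged -0.09, and adult minus pupa was 1.32. Bm-18 (adult minus pupa 1.11, pupa at -0.37) and Bm-154 (0.84, pupa at -0.18) likewise had every kept value above 0 in adult and below 0 in that scan. Bm-31 was at 0.64 in adult and -0.02 in egg, from 2 egg spots with egg in Cy5 only, a difference of 0.65, or 0.42 with both stages in Cy5. These differences between stages were not tested, since each stage is 1 pool, and the pupal values keep any dye effect.

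A blank spot held an adult intensity of 31400 and a larval intensity of 15268 with adult in Cy3, without a negative flag, and 38.8 and 71.6 with adult in Cy5. Other negative controls reached an adult intensity of 3013 in unflagged spots with adult in Cy3. In the authors' deposited value table Bm-175 has a log2 ratio of 0.81 for adult, while 0 of its 6 adult measurements were kept and their intensities were 38.9 to 70.8.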

How the results depend on the processing

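The counts past 2-fold, 3 higher and 1 lower, were the same with medians of spots, centring, an added loess fit and all flags kept. They were also the same with the dimmest 25% left out or a pseudocount of 50. Nor did they change with ncRNAs in both orientations only, no condition on sign, or plateau spots left out (chosen after the data were seen). These last settings could not remove any ncRNA from the counts, since each was measured in both orientations and had no spot on a plateau. Dropping the condition on sign could add none, as 0 ncRNAs past 1.5-fold failed it. With adult in Cy5 alone 3 were on the lower side (Bm-86 joined by Bm-129 and Bm-51) and 2 on the higher (Bm-140 lost), and with adult in Cy3 alone 5 were higher (Bm-23 and Bm-35 added). Without spots below background in both channels 3 were lower, and 2 were lower in the authors' value table or with all values weighted equally, Bm-129 being added. Leaving out each spot position in turn gave 1 to 2 lower. The 1.5-fold threshold gave 13 higher and 9 lower, and the 4-fold threshold 0 higher. The 1.5-fold counts stayed within 1.5 times under every alternative run, but the members changed. With adult in Cy5 alone 16 of the 22 remained, and Bm-101, Bm-172, Bm-21, Bm-36, Bm-37 and Bm-56 joined. Without the first spot position 19 remained, and Bm-17, Bm-24, Bm-52 and Bm-85 joined. Signals above background numbered 115 (adult) and 115 (larva) at the 90th percentile, 8 and 12 at the highest negative spot, and 114 and 115 with blank and buffer spots. Within 1.1-fold in every value was 1 ncRNA, Bm-160, which had only 1 kept value (0.11), and within 1.3-fold were 40. Of 350 recomputed ratios of the 22 ncRNAs, 39 moved by more than the spot SD, 24 of them in a single orientation, and 0 changed sign, which the condition on sign in part fixes. The cause of these shifts was not tested. Flags of 0 alone were not run, since no other non-negative flag occurs in the adult table. No paired analysis was possible because each stage is 1 pool and the labels number no replicates.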
